A study of Mus musculus with 11 samples.

Results

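Neurexins, neuroligins and leucine-rich repeat transmembrane proteins (LRRTMs) are adhesion proteins that join the sending and the receiving side of a synapse. The genes described here are 9 members of these families, named by symbol: the neurexin genes Nrxn2 and Nrxn3, the neuroligin genes Nlgn1, Nlgn2 and Nlgn3, and the LRRTM genes Lrrtm1, Lrrtm2, Lrrtm3 and Lrrtm4. They were taken from the 53465 gene identifiers in the count tables, and each matched 1 identifier. They are listed by symbol, and the rule uses no measured value.

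RNA was sequenced from CRF1+ neurons of the medial prefrontal cortex (mPFC) of adult male CRF1:GFP mice, a reporter line in which GFP marks cells that express the receptor for corticotropin releasing factor (CRF1, gene Crhr1). The cells were collected by fluorescence-activated sorting, and each library came from 1 mouse. Withdrawn mice (n = 5, ethanol treatment) had been exposed to intermittent ethanol vapor over weeks, with ethanol and pyrazole injections (pyrazole is an inhibitor of alcohol dehydrogenase), and were then abstinent for days. Naïve mice (n = 6, control treatment) had received pyrazole and air, so both groups carried the reporter and received pyrazole. The groups follow the title and treatment of each sample. For 3 of the withdrawn mice (withdrawn 3, withdrawn 4 and withdrawn 5) the source name reads control, while the study design as deposited counts 6 ethanol and 5 control mice, so the comparison of the members is also given without these 3 mice. The sort used GFP and 2 dyes that mark nucleated and dead cells. In these bulk libraries, fewer cells of a type and less RNA per cell cannot be told apart.

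Neurexins sit mainly on the presynaptic membrane and are made in many splice forms. Neuroligins and LRRTMs sit on the postsynaptic membrane and bind neurexins across the cleft. Neuroligin 1 is best known from excitatory synapses, neuroligin 2 from inhibitory synapses and neuroligin 3 from both, while LRRTMs act at excitatory synapses, where they help to hold AMPA receptors. The mPFC sends and receives dense glutamatergic projections, and these adhesion proteins help to set the strength of such contacts.

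At their C-terminal ends neurexins and neuroligins carry short tails that bind PDZ domains of scaffold proteins, which for neurexins include CASK and for neuroligins PSD-95. The last 30 coding bases of 8 members are shown. In the neurexins and neuroligins they carry these tails. The LRRTM ends are shown beside them, and whether they also bind PDZ domains was not examined here. They were read from GENCODE M21 transcripts on GRCm38, 5′ to 3′, with the last 4 sense codons in capitals and the stop codon after them.
Nrxn2: aagaacaaagacaaaGAGTATTACGTCtga
Nrxn3: aaaaacaaggacaagGAGTATTATGTGtaa
Nlgn1: ccccattcacattcaACAACCAGGGTAtag
Nlgn2: ccccatccccactccACCACTCGGGTAtag
Nlgn3: ccccactcacactccACTACCCGTGTAtag
Lrrtm1: cagcagcctgcgaggGAATGCGAGGTGtga
Lrrtm3: atcagtgaccataaaCCACAGCTGGCCtga
Lrrtm4: gccatttatctggagAGAATAACAAACtaa

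The Nrxn2 and Nrxn3 ends had 22 of the last 27 coding bases in common, and the neuroligin ends 20 or 21 of 27. The end shown for Nrxn2 was that of 7 of its 8 complete annotated coding transcripts, and the end shown for Nrxn3 that of 5 of its 7. Lrrtm4 has 2 annotated ends, each in 3 of its 6 complete coding transcripts.
Lrrtm4, other end: atctctggctccaggGAGTGTGAGGTAtga

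The counts are per gene, so neither the Lrrtm4 ends nor the splice forms of the neurexins can be told apart in these data. Over the whole coding sequences of these 8 genes, the longest identical run between any pair was 23 bases.

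On GRCm38 the members lie on 8 chromosomes and differ widely in extent. Nrxn3 spans 1612 kb (chr12:88722876-90334935, plus strand), Nlgn1 906 kb (chr3:25426215-26332460, minus strand) and Lrrtm4 791 kb (chr6:80018877-80810143, plus strand). Nlgn2 spans 14.7 kb (chr11:69823122-69837784, minus strand), Nlgn3 26.8 kb (chrX:101299168-101325963, plus strand) and Nrxn2 125 kb (chr19:6418731-6544169, plus strand). Of the LRRTM genes, 3 lie inside alpha-catenin genes on the opposite strand. Lrrtm1 (chr6:77242689-77257791) lies in introns of Ctnna2, Lrrtm3 (chr10:63928472-64090277) in introns of Ctnna3, and Lrrtm2 (chr18:35209003-35215024) inside Ctnna1, with which it shares 95 exonic bases.

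The library kit does not mark strand, so reads from overlapping genes on opposite strands cannot be told apart. Nlgn3 shares 3823 of its 9271 exonic bases with Gm21986 on the same strand, which held at most 2 counts in any mouse. The counting set aside reads that fit more than 1 gene (2.07% to 4.13% of reads). A low count of an overlapping gene therefore does not show how many reads the overlap held, and the Nlgn3 counts may be too low for its full exon length. Nlgn1, Lrrtm4, Nrxn3 and Nrxn2 share between 439 and 1543 exonic bases with other opposite-strand genes. The highest level of any of those overlapping genes in any mouse was 11.7 CPM (counts scaled to a common library size), for Gm14964, which overlaps Nrxn2 and lay between 0 and 1.28 CPM in naïve mice.

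The naïve libraries held 9970161 to 17855514 counts on genes and the withdrawn libraries 7351567 to 22244869. The members held from 139 counts (Lrrtm4, withdrawn 4) to 5309 counts (Nrxn3, naïve 4) per mouse. Naïve 5 and withdrawn 4 stood apart. Naïve 5 had the lowest share of reads outside exons (5.77%) and the fewest genes with a count (15585), and withdrawn 4 had the highest share (48.1%) and the lowest depth. As a check of the sort, Crhr1 measured 93.0 ± 22.0 CPM (SD, n = 6) in naïve and 88.3 ± 32.8 CPM (n = 5) in withdrawn mice. The summed glutamatergic markers (5 genes, among them Slc17a7) lay between 1225 and 3107 CPM. The summed GABAergic markers (6 genes, among them Gad2) lay between 76.7 and 903 CPM in naïve and between 30.1 and 635 CPM in withdrawn mice. Of the 6 markers, 5 had a log2 fold change above 0. The exception, Sst, was named after its values were seen, with 245 ± 288 CPM in naïve and 6.05 ± 13.5 CPM in withdrawn mice (edgeR adjusted p = 0.545).

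All 9 members were expressed in every mouse, and none passed the test of withdrawn against naïve mice (quasi-likelihood test of edgeR, p-values adjusted over all tested genes after Benjamini and Hochberg). All 9 passed the filter on low counts. Calling a gene required both an adjusted p of 0.05 or less and an absolute log2 fold change over 0.6. Of 17093 tested genes, 1 was called (0.00585%), and 0 of the 9 members were. DESeq2, run on the same mice, called 362 of its 40831 tested genes (0.887%) and also 0 members. It gave no adjusted p for 18982 of those genes, so its share among genes that could be called was higher. At an unadjusted p under 0.05, edgeR passed 7.22% of all tested genes and 0 members. No member had groups that did not overlap, while 0.714% of tested genes were higher and 0.24% lower in every withdrawn mouse than in every naïve mouse.

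The members' median log2 fold change was -0.21. The median was 0.021 over all tested genes and -0.053 over the 10187 of them that averaged at least 10 CPM, as every member did. With 1 mouse left out at a time, the members' median ran from -0.025 (without withdrawn 4) to -0.249 (without withdrawn 2), and was -0.064 without naïve 1. It was -0.057 without the 3 mice with conflicting labels and -0.12 without naïve 5 and withdrawn 4 together. By edgeR 8 of the 9 point estimates were below 0, where 48.2% of all tested genes were, and by DESeq2 5 of the 9. With DESeq2 size factors in place of TMM, the estimates of Nrxn2, Nrxn3 and Lrrtm3 turned above 0. Each estimate was smaller than 1.5 times its standard error, and the 95% intervals reached from -1.03 to 0.72 on the log2 scale.

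Without the 3 mice with conflicting labels (6 naïve and 2 withdrawn mice), 4 of the 9 estimates were above 0. The log2 fold changes (± SE) were then 0.27 ± 0.47 for Nrxn2 and 0.20 ± 0.39 for Nrxn3. Among the neuroligins they were 0.28 ± 0.31 for Nlgn1, -0.21 ± 0.49 for Nlgn2 and -0.16 ± 0.30 for Nlgn3. Those of Lrrtm2, Lrrtm3 and Lrrtm4 were -0.057 ± 0.36, 0.12 ± 0.30 and -0.16 ± 0.43. Each of these 8 estimates was smaller than its standard error, and Lrrtm1, described with its values, was the exception.

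**Figure D1:**
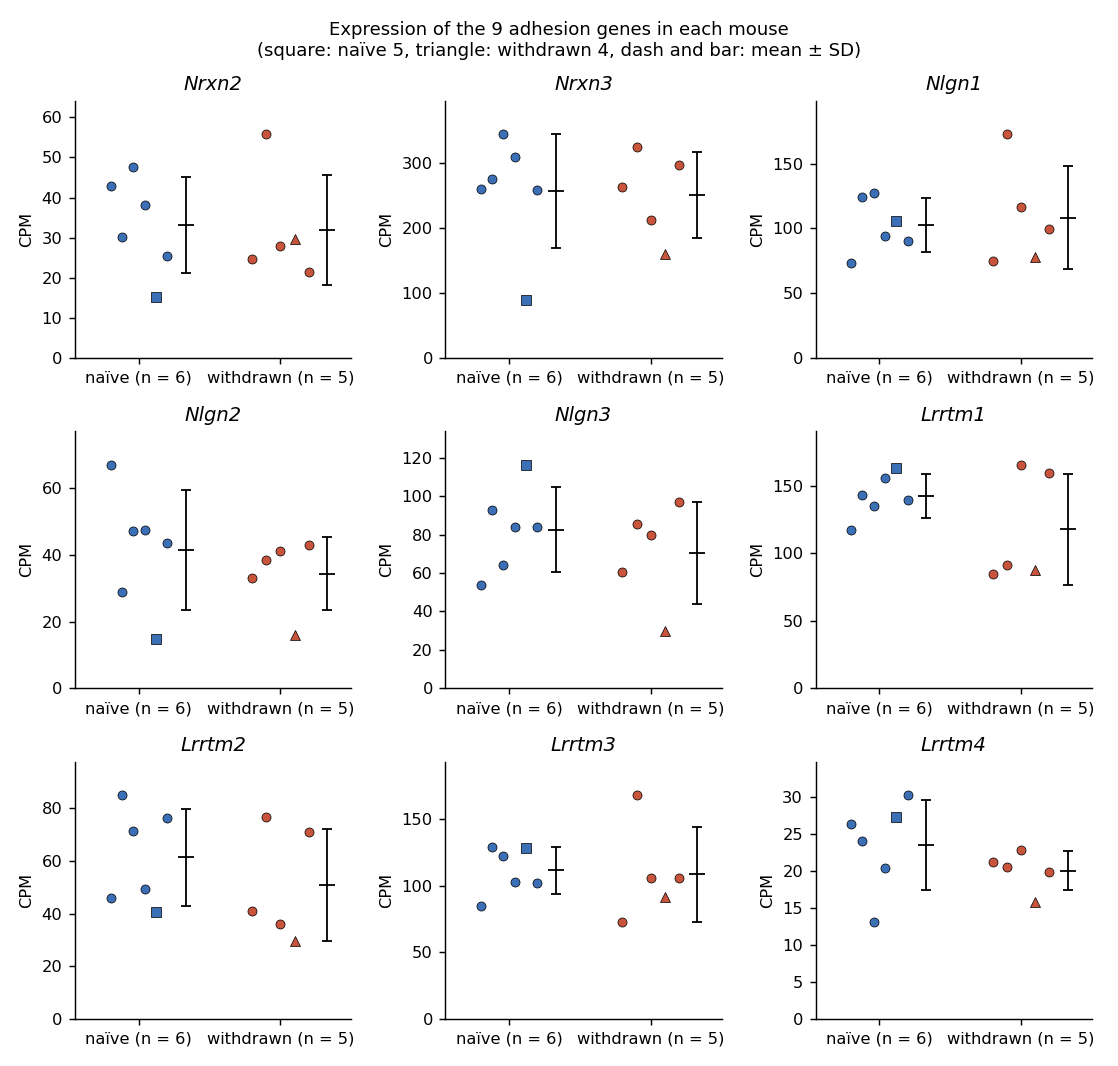
Expression of the 9 adhesion genes in CPM (y axis, starting at 0) in each of 6 naïve and 5 withdrawn mice; points are mice, the dash and bar give mean ± SD, the square is naïve 5 and the triangle withdrawn 4. The groups overlap in every panel, Nrxn3 is lowest in naïve 5 at 89.6 CPM, and Lrrtm1 is below every naïve mouse in 3 withdrawn mice and above every naïve mouse in 1.

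Nrxn3 is a presynaptic neurexin gene. In naïve mice it ranged from 89.6 to 343 CPM with a median of 267, and in withdrawn mice 1 to 5 it measured 263, 323, 212, 159 and 296 CPM. Naïve 5 was the lowest of all 11 mice, and the other naïve mice lay between 259 and 343 CPM, a range that holds 3 of the 5 withdrawn mice. Mean levels were 256 ± 87.8 CPM (SD, n = 6) in naïve and 251 ± 65.9 CPM (n = 5) in withdrawn mice. Their log2 fold change was -0.014 ± 0.29 (SE; 95% interval -0.64 to 0.61; edgeR adjusted p = 0.995). Without naïve 5 it was -0.19 ± 0.18 (edgeR adjusted p = 0.880).

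Nrxn3 varied more between mice than most genes of its level. Its pooled SD within groups was 0.59 on the log2 scale, and 97.3% of the 732 tested genes whose mean log2 CPM was close to its own had a smaller one. Without naïve 5, the SD of the naïve group fell from 0.70 to 0.18.

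Nrxn2 ranged from 15.2 to 47.6 CPM in naïve mice with a median of 34.1, and measured 24.7, 55.8, 28.0, 29.7 and 21.4 CPM in withdrawn mice 1 to 5. Naïve 5 was again the lowest of the 11 mice and withdrawn 2 the highest. The means of 33.2 ± 12.0 CPM (SD, n = 6) and 31.9 ± 13.7 CPM (n = 5) differed by a log2 fold change of -0.031 ± 0.35 (SE; 95% interval -0.78 to 0.72; edgeR adjusted p = 0.992). The Nrxn3 to Nrxn2 ratio of CPM lay between 5.35 and 13.8 over the 11 mice.

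Of the neuroligins, Nlgn1 ranged from 73.2 to 127 CPM in naïve mice with a median of 99.9. In withdrawn mice 1 to 5 it measured 74.96, 173, 117, 78.0 and 99.4 CPM. Withdrawn 2 exceeded every naïve mouse, and the other withdrawn mice lay within the naïve range. Withdrawn against naïve, the log2 fold change was 0.10 ± 0.23 (SE; 95% interval -0.39 to 0.60; edgeR adjusted p = 0.966). It was -0.16 without withdrawn 2, so the sign of this estimate rested on that mouse.

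Nlgn2, the neuroligin of inhibitory synapses, ranged from 14.7 to 66.9 CPM in naïve mice with a median of 45.3, and measured 33.1, 38.5, 41.1, 16.1 and 42.8 CPM in withdrawn mice. Its lowest values in each group were those of naïve 5 and withdrawn 4. For Nlgn2 the log2 fold change was -0.27 ± 0.35 (SE; 95% interval -1.03 to 0.49; edgeR adjusted p = 0.933). It was -0.44 ± 0.28 without naïve 5 (edgeR adjusted p = 0.796), -0.092 ± 0.35 without withdrawn 4 and -0.28 ± 0.25 without both. Without naïve 1, the highest naïve mouse, it was -0.062 ± 0.35, so that the size of the estimate moved with single mice of both groups.

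Nlgn3 ranged from 54.0 to 116 CPM in naïve mice with a median of 84.1, and measured 60.4, 85.6, 79.7, 29.7 and 97.1 CPM in withdrawn mice. Here naïve 5 was the highest of all mice and withdrawn 4 the lowest. For Nlgn3 the log2 fold change was -0.21 ± 0.26 (SE; 95% interval -0.78 to 0.36; edgeR adjusted p = 0.928). Without both of those mice the estimate was 0.079 ± 0.20, on the other side of 0 and again within its error.

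Lrrtm1 had the smallest unadjusted p of the 9 members. It ranged from 117 to 163 CPM in naïve mice with a median of 141, and measured 84.5, 91.03, 165, 87.7 and 159 CPM in withdrawn mice 1 to 5. The withdrawn values fell into 2 sets, with 3 mice below every naïve mouse, 1 mouse above every naïve mouse and 1 within the naïve range. Mean levels were 142 ± 16.3 CPM (SD, n = 6) and 118 ± 40.9 CPM (n = 5), and the log2 fold change was -0.27 ± 0.18 (SE; 95% interval -0.66 to 0.13; edgeR unadjusted p = 0.171, adjusted p = 0.837).

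Of the 3 withdrawn mice with a source name that reads control, 2 held the high Lrrtm1 values (withdrawn 3 and withdrawn 5) and 1 a low value (withdrawn 4). Without these 3 mice the log2 fold change of Lrrtm1 was -0.68 ± 0.21, with an unadjusted p of 0.00848 and an adjusted p of 0.654 by edgeR. That was the only alternative of those run in which any member had an unadjusted p under 0.05. The adjusted p of Lrrtm1 was at least 0.648 in every alternative run.

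Lrrtm2 ranged from 40.6 to 84.9 CPM in naïve mice with a median of 60.3, and measured 40.9, 76.6, 36.1, 29.7 and 70.9 CPM in withdrawn mice. Withdrawn 3 and withdrawn 4 lay below every naïve mouse and the other 3 lay within the naïve range. Lrrtm2 had a log2 fold change of -0.25 ± 0.29 (SE; 95% interval -0.88 to 0.38; edgeR adjusted p = 0.918).

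Lrrtm3 ranged from 85.0 to 129 CPM in naïve mice with a median of 113. In withdrawn mice 1 to 5 it measured 72.6, 168, 106, 91.9 and 106 CPM. Withdrawn 2 was above every naïve mouse and withdrawn 1 below every naïve mouse. Lrrtm3 had a log2 fold change of -0.0063 ± 0.21 (SE; 95% interval -0.46 to 0.44; edgeR adjusted p = 0.996), the smallest in size of the 9 estimates.

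Lrrtm4 ranged from 13.1 to 30.2 CPM in naïve mice with a median of 25.2, and measured 21.2, 20.6, 22.8, 15.8 and 19.8 CPM in withdrawn mice. All 5 withdrawn mice lay within the naïve range. The log2 fold change was -0.21 ± 0.27 (SE; 95% interval -0.78 to 0.37; edgeR adjusted p = 0.932). Its spread was small for a gene of its level, with a pooled SD of 0.35 on the log2 scale that was above that of only 7.29% of 2180 genes of similar level.

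**Figure D2:**
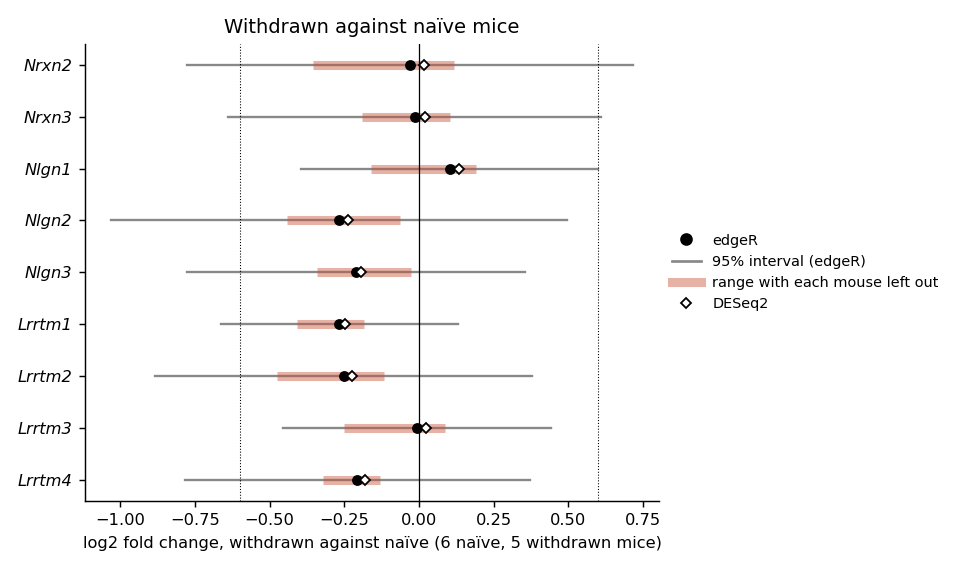
Log2 fold change of each member, withdrawn (n = 5) against naïve (n = 6), with the edgeR estimate (filled circle), its 95% interval (grey line), the range with each mouse left out in turn (red bar) and the DESeq2 estimate (diamond); dotted lines mark the 0.6 threshold. All 9 intervals include 0, and the estimates lie between -0.27 and 0.10.

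The same mice were often the extremes. Withdrawn 4 was the lowest withdrawn mouse for 5 members (Nrxn3, Nlgn2, Nlgn3, Lrrtm2 and Lrrtm4) and withdrawn 2 the highest for 5 (Nrxn2, Nrxn3, Nlgn1, Lrrtm2 and Lrrtm3). Naïve 5 was the lowest naïve mouse for Nrxn2, Nrxn3, Nlgn2 and Lrrtm2, and the highest for Nlgn3 and Lrrtm1. The summed level of the 9 members ran from 538 CPM in withdrawn 4 to 1032 CPM in withdrawn 2. Withdrawn 4 also had the lowest sum of glutamatergic markers (1225 CPM). With naïve 5 and withdrawn 4 both left out, 0 members were called and 0 had an unadjusted p under 0.05 by edgeR.

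To compare levels between genes, CPM was divided by the length of all annotated exons in kilobases. On this scale Lrrtm1 was highest, at 43.2 ± 10.3 CPM per kb (SD, n = 11), above Lrrtm3 in 10 of 11 mice. Lrrtm3 followed at 26.0 ± 6.10 CPM per kb and Nrxn3 at 20.1 ± 5.93 CPM per kb. Lrrtm3 was above Nrxn3 in 8 of 11 mice, and with the longest annotated transcript as the length their order turned, so these neighbours were not separated. Nrxn3 was above Lrrtm2, the next gene, in 11 of 11 mice.

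The next 4 genes lay close together. Lrrtm2 measured 9.40 ± 3.25, Nlgn3 8.31 ± 2.55, Nlgn1 7.84 ± 2.19 and Nlgn2 6.60 ± 2.57 CPM per kb (SD, n = 11). Lrrtm2 was above Nlgn3 in 8, Nlgn3 above Nlgn1 in 7 and Nlgn1 above Nlgn2 in 7 of 11 mice, while Nlgn2 was above Lrrtm4, the gene after it, in 10. Counting only the exon bases that Nlgn3 shares with no other gene raised it to 14.1 CPM per kb, above Lrrtm2. Lrrtm4 at 3.58 ± 0.81 and Nrxn2 at 2.36 ± 0.88 CPM per kb were the lowest, with Lrrtm4 above Nrxn2 in 9 of 11 mice. Gene level lengths take in exons that a given mRNA may not hold, which matters most for the neurexins with their many splice forms.

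**Figure D3:**
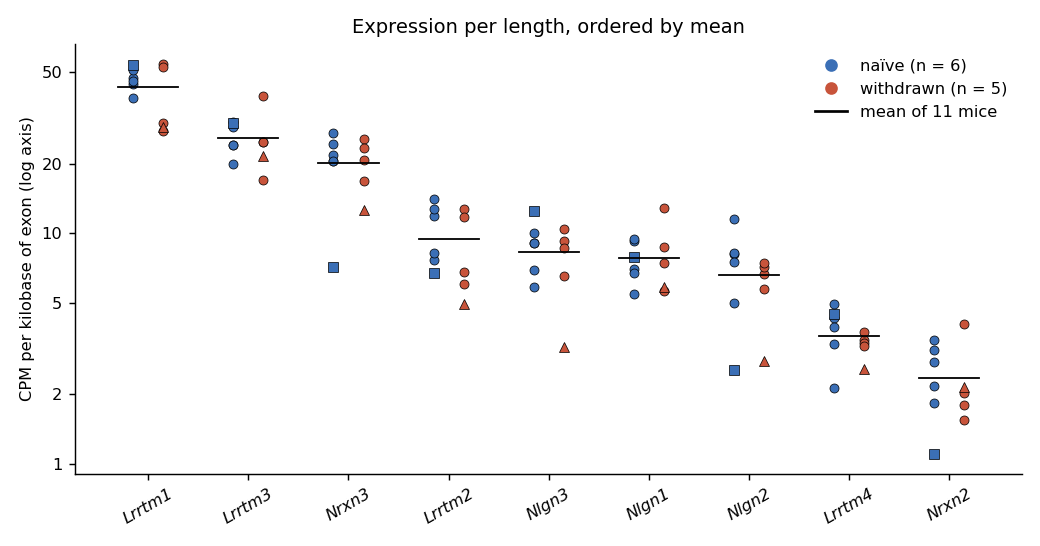
Level of each member in CPM per kilobase of annotated exon (log axis) in 6 naïve (blue) and 5 withdrawn (red) mice, ordered by the mean of the 11 mice (line); the square is naïve 5 and the triangle withdrawn 4. Lrrtm1 (mean 43.2), Lrrtm3 (26.0) and Nrxn3 (20.1) form the upper group, and Nrxn2 is lowest (2.36).

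The division of the summed neuroligin level per length depended on the length used. With all annotated exons, in naïve mice Nlgn1 held 32.1 ± 5.91%, Nlgn2 30.2 ± 13.5% and Nlgn3 37.6 ± 10.4% (SD, n = 6), and in withdrawn mice 38.1 ± 8.64%, 27.4 ± 3.94% and 34.5 ± 5.29% (n = 5). With only the exon bases that no other gene shares, the naïve shares were 27.3 ± 4.81%, 23.8 ± 11.6% and 48.9 ± 10.6%. The withdrawn shares were then 32.9 ± 8.16%, 21.4 ± 2.78% and 45.7 ± 6.02%. Of these 2 lengths, both gave Nlgn3 the highest mean share in naïve mice. In withdrawn mice Nlgn1 had the highest mean share with all exons and Nlgn3 with the unshared bases. With all exons, the naïve share of Nlgn2 ran from 11.0% to 50.6%, a range that includes all withdrawn mice. The LRRTMs were unequal. Lrrtm1 held 53.8 ± 3.59% in naïve and 50.7 ± 9.90% in withdrawn mice, Lrrtm3 30.01 ± 2.39% and 33.9 ± 7.96%, Lrrtm2 11.7 ± 3.10% and 11.0 ± 3.32%, and Lrrtm4 4.46 ± 1.32% and 4.45 ± 1.06%. The share of Lrrtm1 was as low as 35.1% in a withdrawn mouse, below the lowest naïve share of 49.4%. No test was run on these shares.

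Nlgn1 and Lrrtm3 followed each other across the mice more closely than either followed any other tested gene. Likeness was measured as the mean absolute difference between log2 CPM values after each gene was centred on its mean over the 11 mice. It was 0.12 for this pair, where the median over all tested genes was 0.60 for Nlgn1 and 0.59 for Lrrtm3. The Nlgn1 to Lrrtm3 ratio of CPM stayed between 0.826 and 1.102 while Nlgn1 ranged from 73.2 to 173 CPM and Lrrtm3 from 72.6 to 168 CPM. The 2 genes share library, depth and composition in every point, and this is a description of 11 mice.

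For the other members the nearest genes lay outside these families. The nearest to Nrxn3 were Grin1, an NMDA receptor subunit (0.15), and Cacna1b, a presynaptic calcium channel (0.15). Nlgn2 was nearest to Sncb, the synuclein beta gene (0.11), and then to Phyhip (0.17), and Lrrtm1 to Msmo1, a sterol synthesis enzyme (0.092), and then to Ncald, a neuronal calcium sensor (0.11). Nrxn2 was nearest to Tmem74b and Me1, Nlgn3 to Apbb1 and Rabggta, Lrrtm2 to Slc11a2 and Cdc7, and Lrrtm4 to Fam53a and Yars, at distances from 0.12 to 0.21. The second nearest genes were Prss12 for Nlgn1 (0.15) and Dyrk3 for Lrrtm3 (0.13).

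**Figure D4:**
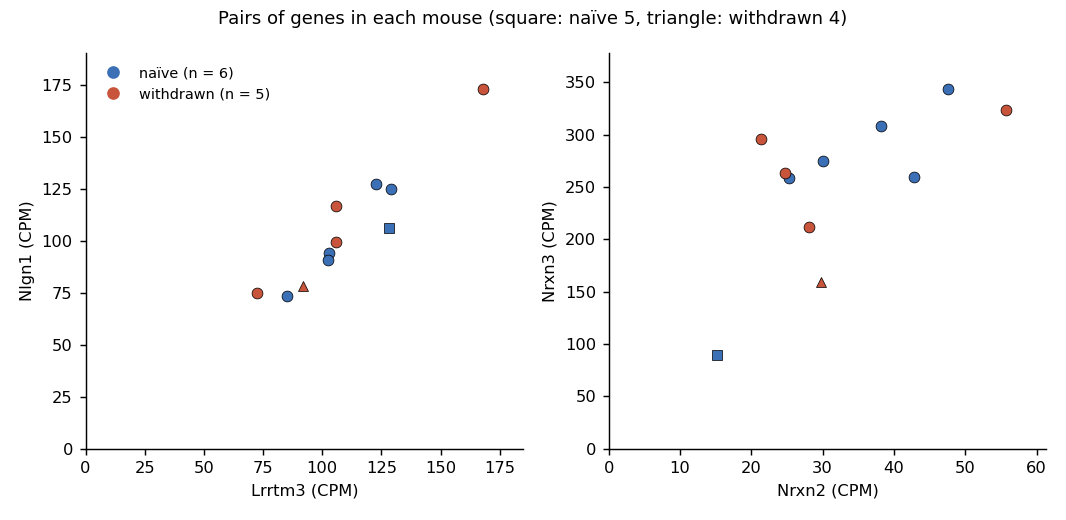
Pairs of members in each of 6 naïve (blue) and 5 withdrawn (red) mice, in CPM on both axes, with Nlgn1 against Lrrtm3 on the left and Nrxn3 against Nrxn2 on the right; the square is naïve 5 and the triangle withdrawn 4. The Nlgn1 to Lrrtm3 ratio stays between 0.826 and 1.102, while the Nrxn3 to Nrxn2 ratio varies from 5.35 to 13.8.

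The genes around this adhesion system were taken from 7 lists of 80 genes, of which 77 passed the filter on low counts. By edgeR 0 of the 77 were called, beside 1 of all tested genes. DESeq2 called 3, all higher in withdrawn mice, beside 0.887% of all genes it tested, where 342 of 362 calls were higher. That share includes 18982 genes without an adjusted p, which could not be called. At an unadjusted p under 0.05, edgeR passed 5 higher and 3 lower in withdrawn mice, beside 5% and 2.22% of all tested genes. Their median log2 fold change was -0.015, and 36 estimates were above 0 and 41 below.

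Of the other neurexin partners, postsynaptic or secreted, 16 of 17 passed the filter (C1ql2 did not), with 3 estimates above 0 and 13 below. Dag1 encodes dystroglycan, which binds neurexins and laminins. It ranged from 60.6 to 93.5 CPM in naïve mice with a median of 78.9, and measured 171, 154, 141, 111 and 116 CPM in withdrawn mice 1 to 5. The groups did not overlap, and the lowest withdrawn mouse lay above the highest naïve mouse, as in 0.714% of all tested genes. Dag1 had a log2 fold change of 0.87 ± 0.17 (SE; edgeR adjusted p = 0.0931; DESeq2 adjusted p = 0.000345). When those 3 mice with conflicting labels were left out, Dag1 had a log2 fold change of 1.09 ± 0.22 (edgeR unadjusted p = 0.000407, adjusted p = 0.640).

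Igsf21, a neurexin 2 ligand of inhibitory synapses, was named after its values were seen. It ranged from 90.2 to 216 CPM in naïve mice and measured 72.7, 122, 88.2, 90.6 and 87.5 CPM in withdrawn mice. The groups overlapped through naïve 1, withdrawn 2 and withdrawn 4. Igsf21 had a log2 fold change of -0.69 ± 0.21 (SE; edgeR adjusted p = 0.318).

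Among the regulators and ligands of neuroligins and LRRTMs, 11 of 12 passed the filter (Gpc2 did not), with 8 estimates above 0 and 3 below. Glypicans are heparan sulfate proteoglycans, some of which bind Lrrtm4. Gpc3 ranged from 1.16 to 11.2 CPM in naïve mice and measured 108, 20.1, 43.8, 89.5 and 33.1 CPM in withdrawn mice. Gpc6 ranged from 11.1 to 29.6 CPM in naïve mice and measured 43.9, 45.8, 54.9, 46.2 and 44.5 CPM in withdrawn mice. For both glypicans all 5 withdrawn mice exceeded the highest naïve mouse, as in 0.714% of all tested genes. Of the 77 listed genes that passed the filter, only Dag1, Gpc3 and Gpc6 had groups that did not overlap.

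The log2 fold change was 3.41 ± 0.67 (SE) for Gpc3, with an adjusted p of 0.0936 by edgeR and 6.69e-05 by DESeq2. It was 1.16 ± 0.28 for Gpc6, with an adjusted p of 0.167 by edgeR and 0.00291 by DESeq2. With the filter of at least 10 counts in every mouse, Dag1 (edgeR adjusted p = 0.0333) and Gpc3 (edgeR adjusted p = 0.0151) were called. They were among 30 genes called with that filter. Without withdrawn 2, Gpc3 passed the edgeR threshold (log2 fold change 3.60, adjusted p = 0.0200), in a fit that called 193 genes. Over the alternative fits by edgeR, voom and DESeq2, the adjusted p ran from 6.69e-05 to 0.647 for Gpc3. For Gpc6 it ran from 0.00291 to 0.789 over those fits. Mdga2, which encodes a protein that binds neuroligins and blocks their contact with neurexins, was named after its values were seen. Its log2 fold change was 0.87 ± 0.28 (edgeR adjusted p = 0.401), with 3 of 5 withdrawn mice above every naïve mouse.

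Some markers of other cell types were also higher in withdrawn mice. The summed level of 5 fibroblast markers ranged from 0.0709 to 57.2 CPM in naïve mice and from 10.3 to 1236 CPM in withdrawn mice (two-sided exact permutation p = 0.026, adjusted p = 0.117 over 9 marker lists), and all 4 of the markers that passed the filter had an unadjusted edgeR p under 0.05, while Lum, which did not pass, averaged 1.40 CPM in naïve and 0.86 CPM in withdrawn mice. Withdrawn 2 had the lowest fibroblast sum of the withdrawn mice, 10.3 CPM, within the naïve range. In that mouse Dag1 (154 CPM), Gpc3 (20.1 CPM) and Gpc6 (45.8 CPM) were above every naïve mouse. Gpc3 was lowest there among withdrawn mice, and over the withdrawn mice it fell in the same order as the fibroblast sum. Dag1 and Gpc6 did not follow that order. The summed level of 5 microglial markers ranged from 0 to 6.28 CPM in naïve and from 6.69 to 16.2 CPM in withdrawn mice (exact permutation p = 0.00866, adjusted p = 0.0779), with 2 of the 5 passing the filter. Tmem119 carried that sum, with means of 0.53 and 7.25 CPM, while Csf1r (0.96 and 0.79 CPM) and P2ry12 (0.23 and 0.023 CPM) had lower means in withdrawn mice. The summed astrocyte markers ranged from 9.85 to 152 CPM in naïve and from 12.0 to 329 CPM in withdrawn mice (exact permutation p = 0.128, adjusted p = 0.321). Gja1 carried the astrocyte sum, with means of 15.3 and 184 CPM, while Aqp4, Slc1a3, Aldh1l1 and Gfap all had lower means in withdrawn mice. These markers were named after their values were seen. None of these markers was at 0 in all mice. The part of these cells in the levels of the partner genes was not tested.

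**Figure D5:**
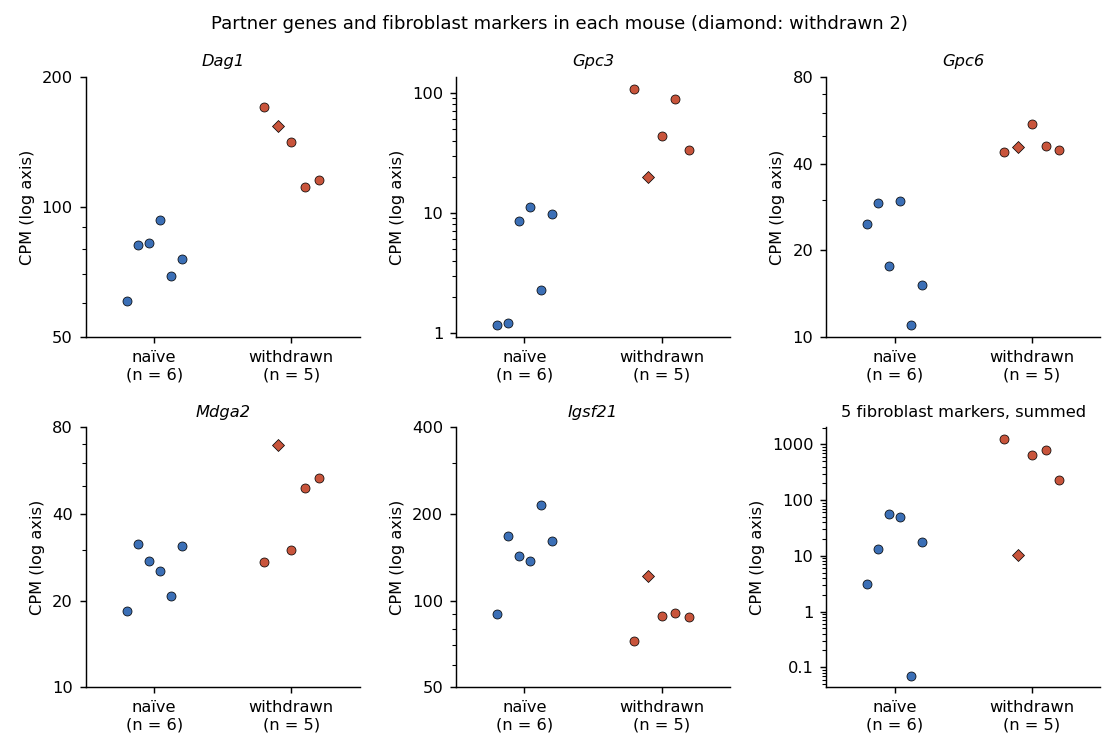
Levels in CPM (log axes) of Dag1, Gpc3, Gpc6, Mdga2 and Igsf21 and the sum of 5 fibroblast markers in each of 6 naïve (blue) and 5 withdrawn (red) mice; the diamond is withdrawn 2. Dag1, Gpc3 and Gpc6 are higher in every withdrawn mouse than in every naïve mouse, as are 0.714% of all tested genes. The fibroblast sum of withdrawn 2 (10.3 CPM) lies within the naïve range. Both this sum and Gpc3 are lowest in withdrawn 2 among the withdrawn mice.

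The remaining lists held no gene called by either tool. Of the other leucine-rich synaptic adhesion genes (netrin-G ligand, Slitrk, SALM and FLRT families), 16 of 17 passed the filter, 9 estimates were above 0 and 7 below, and 0 had an unadjusted edgeR p under 0.05. Their lowest p was that of Lrrc4c, a netrin-G ligand (log2 fold change -0.26 ± 0.19, edgeR adjusted p = 0.852). Of the 14 receptor phosphatases, teneurins and other adhesion genes, 7 estimates were above 0 and 7 below. Cadm1, a synaptic immunoglobulin adhesion gene, had the lowest p there (-0.36 ± 0.18, edgeR adjusted p = 0.728).

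The 14 intracellular partners had 5 estimates above 0 and 9 below. Cask, a scaffold that binds neurexin tails, was named after its values were seen and had a log2 fold change of -0.48 ± 0.21 (edgeR adjusted p = 0.644). Of the 3 regulators of neurexin splicing, Khdrbs3 measured 384 CPM in naïve 5 and between 97.3 and 124 CPM in the other naïve mice, against 67.3, 97.3, 110, 55.2 and 109 CPM in withdrawn mice. Its log2 fold change was -0.84 ± 0.33 (edgeR adjusted p = 0.563) and -0.39 ± 0.19 without naïve 5 (edgeR adjusted p = 0.676).

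The alpha-catenin genes that surround 3 of the LRRTM genes did not pass the test either. The log2 fold changes were 0.46 ± 0.37 for Ctnna1, around Lrrtm2, -0.15 ± 0.15 for Ctnna2, around Lrrtm1, and 0.95 ± 0.84 for Ctnna3, around Lrrtm3 (edgeR adjusted p from 0.866 to 0.896). Ctnna3 was scarce, with a mean of 2.13 CPM in naïve and 3.97 CPM in withdrawn mice.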

How the data were processed

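The authors trimmed the reads, aligned them to GRCm38 and counted them per Ensembl gene, and the deposited values are raw counts for 6 naïve and 5 withdrawn mice, neither normalized nor pooled. Whether counting used strand is not given in the sources used here. cDNA was amplified from picogram amounts of RNA, so depth (7351567 to 22244869 counts on genes) covers counting error only. Symbols, lengths, positions and coding sequences came from GENCODE M21 on GRCm38.

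Withdrawn and naïve mice were compared with edgeR 4.0.16 in R 4.3.3 (TMM, filterByExpr with minimum count 10 and minimum total 15, quasi-likelihood test over 17093 genes, Benjamini-Hochberg adjustment), without a replicate block because same-numbered mice are different animals. CPM used TMM library sizes, and log2 CPM a prior count of 2. DESeq2 1.42.0 and voom in limma 3.58.1 were alternatives. The test code was checked on simulated counts with large changes and the same spread between mice for every gene. That setting cannot show how well changes as small as the members' estimates would be found. Marker sums were compared by exact permutation over mice.

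The members and gene lists were chosen with earlier results of these data known. Genes named are the members, each list's gene with the lowest p, those called by either tool, the alpha-catenins, Crhr1, Slc17a7, Gad2 and each member's 2 nearest genes. Some genes that this rule names are not reported here.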

Additional observations from a re-analysis of the deposited data

Results flagged for a closer look

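Within-group values were screened for a mouse far from the others (Dixon's criterion on log2 CPM, 50 sets, of which 18 were sets of members). Chance would give 2.5 such sets, and 4 were found, 2 of them in members. Nrxn3 stood at a log2 CPM of 6.49 in naïve 5, below the other 5 naïve mice, and Nlgn2 at 4.02 in withdrawn 4, below the other 4 withdrawn mice. Khdrbs3 stood at 8.59 in naïve 5, above the other naïve mice. Gpc6 stood at 5.78 in withdrawn 3, above the other withdrawn mice, which lay close together.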

How the results depend on the processing

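No member was called under any alternative run. Members with an unadjusted p under 0.05 numbered 0 except without the 3 mice with conflicting labels (1, Lrrtm1). The log2 fold changes of Lrrtm1, Lrrtm2, Lrrtm4 and Nlgn2 kept their sign throughout. The estimates closest to 0 did not, and the cause was not tested. Lrrtm3 was 0.025 with DESeq2, 0.027 with DESeq2 size factors, 0.0014 with TMMwsp, 0.043 with at least 10 counts in every mouse, 0.12 without the 3 mice and 0.058 without naïve 5 and withdrawn 4 (chosen after seeing the data), where Nlgn3 was 0.079. Nrxn2 was 0.016 with DESeq2, 0.016 with its size factors, 0.026 with the stricter filter and 0.27 without the 3 mice, and Nrxn3 was 0.020, 0.020, 0.028 and 0.20 there. Nlgn1 was -0.11 with voom. Leaving out 1 mouse at a time, the range was -0.25 to 0.088 for Lrrtm3, -0.16 to 0.19 for Nlgn1, -0.36 to 0.12 for Nrxn2 and -0.19 to 0.10 for Nrxn3.

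Over all genes, 1 call became 362 with DESeq2, 137 without a filter, 30 with the stricter filter and 0 without the 3 mice, with the share of reads outside exons as a covariate, and without naïve 5 and withdrawn 4, and ranged from 0 to 193 with each mouse left out (193 without withdrawn 2, 6 without naïve 2, 1 without naïve 4 and 0 without any other mouse). The genes called in the 7 lists went from 0 to 3 with DESeq2, 1 without a filter and 2 with the stricter filter, and from 0 to 1 with each mouse left out. DESeq2 gave no adjusted p for 18982 genes, which count as not called.

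Replicate numbers only count the mice of each group in sample order and carry no pairing. The correlation of same-numbered mice ran from -0.20 to 0.19, which cannot test for pairing or batch under such numbering. With a replicate block 0 genes and 0 members were called, and Nrxn3 was 0.060. Other gene lengths kept 7 of the 9 ranks of level, and size factors all 9. At 6 against 5 mice the 95% intervals leave room for changes of members up to 0.72 or down to -1.03 on the log2 scale.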
